A study of Homo sapiens with 15 samples.

Results

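The SLAM family of leukocyte surface receptors was examined in RNA-seq libraries of K562, a line from chronic myeloid leukemia that carries the BCR-ABL1 fusion. The list holds 10 genes, namely CD84, SLAMF6, SLAMF1, SLAMF7, LY9, SLAMF8, SLAMF9, CD48, CD244 and the adaptor gene SH2D1A. They were chosen by gene symbol from the known family, and the level of CD84 in HSP90α-KO cells was among the earlier results in view when the family was picked. The knockout table has a row for 5 of the 10 (CD84, SLAMF6, SLAMF1, CD48 and SLAMF7) among 17769 genes, and all 5 passed the filter on low values. The resistance table has a row for 10 of 10 among 60510 genes, and 6 passed: the same 5 and SH2D1A.

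The SLAM receptors are immunoglobulin-type proteins of the CD2 family. Most of them are their own ligand, so that a receptor on one cell binds the same receptor on the next, whereas CD48, which is held in the membrane by a lipid anchor and has no signalling tail, is the ligand of CD244. The cytoplasmic tails of many, not all, of the receptors carry tyrosine motifs. These bind the small SH2 adaptors SAP (SH2D1A) or EAT-2 (SH2D1B), through which Src family kinases such as FYN can be brought in. Without the adaptors they can bind phosphatases such as SHP-1 (PTPN6) and SHIP-1 (INPP5D). SLAM receptors are known for tuning contacts among T cells, B cells, NK cells and phagocytes, and CD84 is also found on platelets.

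The knockout experiment compared K562 cells that carry Cas9 and an empty vector (EV; genotype WT, no treatment) with HSP90α-KO and HSP90β-KO cells, in which Cas9 was aimed at HSP90AA1 or HSP90AB1, the genes of the stress-inducible and the constitutive cytosolic form of the chaperone HSP90. By the growth notes of the labels, worded alike for every sample, the K562 cells had received Cas9 and a guide by lentivirus, were sorted on a fluorescent marker and then selected as single clones. The resistance experiment compared cells kept for months in rising amounts of the HSP90 inhibitor PU-H71 (PUHr; genotype WT) with parental cells kept in its solvent DMSO alongside (genotype WT), again after clonal selection. Each group has 3 libraries. The labels do not say which clone a library came from, so a difference between groups cannot be told apart from a difference between clones. The study calls the replicates of both experiments independent, and neither it nor the labels say whether they were separate cultures, so the p-values measure the spread between these libraries, which may be technical.

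A library held between 19594381 and 26216730 reads on genes. Levels are given as CPM, read counts scaled to the size of the library, after the prior count of the deposited log2 values was removed. HSP90AA1 transcript was at 704 ± 18.7 CPM (SD, n = 3) in EV and 90.4 ± 2.34 CPM in HSP90α-KO cells, and HSP90AB1 transcript was at 2806 ± 21.1 CPM in EV and 1913 ± 25.1 CPM in HSP90β-KO cells, each lower in the group labelled as its knockout. All 8 erythroid and megakaryocytic marker genes listed for K562 were tested in both tables. The tables were normalized separately, so levels in EV and in parental cells stand side by side and were not tested against each other.

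Of the 10 genes, 9 lie on the long arm of chromosome 1 within 1036 kb, and 7 of these (SLAMF6, CD84, SLAMF1, CD48, SLAMF7, LY9 and CD244) form a cluster of 378 kb at chr1:160485030-160862887 (GRCh38, GENCODE release 44). SLAMF6 lies at chr1:160485030-160523262, CD84 at chr1:160541095-160579516, SLAMF1 at chr1:160608106-160647044 and CD48 at chr1:160678746-160711831, all on the minus strand, and SLAMF7 at chr1:160739057-160754821 on the plus strand. SH2D1A lies on the X chromosome at chrX:124227868-124373197. RefSeq promoter entries (GRCh38.p14, from 250 bases before to 50 bases after the start of transcription) were matched for 7 of the 10 genes. There was none for CD84, SLAMF7 or LY9. Those of SLAMF6, SLAMF1 and CD48, 3 genes of the cluster, are shown 5′ to 3′ on the strand of the gene, with matches to the searched motifs in capitals. Against EV, SLAMF6 was higher in HSP90α-KO only, SLAMF1 lower in HSP90α-KO and higher in HSP90β-KO, and CD48 higher in both. SLAMF6 is read from chr1:160523206-160523505, SLAMF1 from chr1:160646995-160647294 and CD48 from chr1:160711773-160712072, each on the minus strand.
SLAMF6: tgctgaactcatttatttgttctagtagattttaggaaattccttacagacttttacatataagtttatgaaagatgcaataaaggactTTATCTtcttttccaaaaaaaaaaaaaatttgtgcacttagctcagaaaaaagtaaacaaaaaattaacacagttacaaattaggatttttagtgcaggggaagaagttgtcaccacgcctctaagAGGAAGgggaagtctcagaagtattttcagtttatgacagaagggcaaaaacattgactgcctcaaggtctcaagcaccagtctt
SLAMF1: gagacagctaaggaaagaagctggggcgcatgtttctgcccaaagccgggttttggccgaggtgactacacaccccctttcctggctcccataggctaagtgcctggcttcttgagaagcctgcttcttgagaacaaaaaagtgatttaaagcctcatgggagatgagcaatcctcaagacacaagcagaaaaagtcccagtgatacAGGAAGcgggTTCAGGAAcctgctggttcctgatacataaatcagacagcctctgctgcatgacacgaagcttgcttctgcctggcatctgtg
CD48: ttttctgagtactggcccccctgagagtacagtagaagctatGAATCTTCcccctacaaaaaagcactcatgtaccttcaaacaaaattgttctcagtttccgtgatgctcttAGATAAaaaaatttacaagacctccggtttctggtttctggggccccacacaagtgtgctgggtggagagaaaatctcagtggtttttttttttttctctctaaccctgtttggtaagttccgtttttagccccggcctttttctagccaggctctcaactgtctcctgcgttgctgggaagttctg

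The letters searched on both strands were the heat shock element half-site pairs GAANNTTC and TTCNNGAA, the GATA motifs AGATAA and TGATAA, the ETS motif AGGAAG and the RUNX motif TGTGGT. The SLAMF6 window held AGATAA, on the opposite strand, and AGGAAG. The SLAMF1 window held AGGAAG and TTCNNGAA, and the CD48 window held GAANNTTC and AGATAA. No match overlapped another. Among all 35116 promoter entries, GAANNTTC occurred in 6.77%, TTCNNGAA in 7.74%, AGATAA in 10.3%, TGATAA in 7.53%, AGGAAG in 33.6% and TGTGGT in 13.1%. A match is a description of these letters in the window, and no binding was measured here.

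CD84 and SLAMF6 supplied most SLAM family reads in every group. Per kilobase of exon, SLAMF6 was the highest in EV at 17.6 ± 0.639 CPM per kb (SD, n = 3), followed by CD84 at 8.63 ± 0.208, SLAMF1 at 0.879 ± 0.155, CD48 at 0.419 ± 0.101 and SLAMF7 at 0.373 ± 0.0596 CPM per kb. The last 2 of this order did not differ beyond their spread. CD84 and SLAMF6 together made up 94.7 to 95.3% of the family's reads in EV, 97.9 to 98.4% in HSP90α-KO and 89.5 to 90.6% in HSP90β-KO cells. In the resistance experiment they made up 91.6 to 92.4% in parental and 82.1 to 86.8% in PUHr cells. In HSP90β-KO cells, CD48 (1.87 ± 0.115 CPM per kb) and SLAMF1 (1.62 ± 0.148 CPM per kb) both stood higher than in EV.

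**Figure D1:**
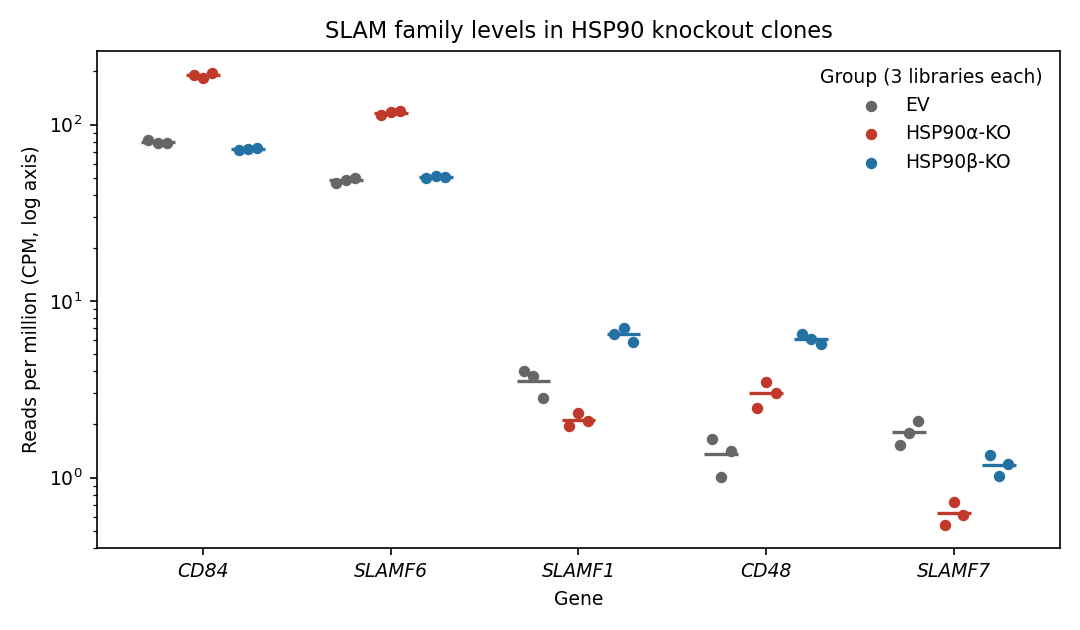
Level of 5 SLAM family genes in each library of the knockout table, in CPM on a log axis; points are libraries and bars are group means of 3. CD84 and SLAMF6 were highest in HSP90α-KO cells, CD48 and SLAMF1 in HSP90β-KO cells and SLAMF7 in EV.

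HSP90α-KO cells had higher CD84, SLAMF6 and CD48 and lower SLAMF1 and SLAMF7 transcript levels than EV cells. A gene was called changed at an adjusted p under 0.05 with a log2 fold change above 1 or below -1. By this rule 3 of 5 members were higher in HSP90α-KO than in EV, where 5.32% of 17039 genes tested were higher, and 1 of 5 was lower, against 5.01% of all genes. By adjusted p alone 5 of 5 differed, against 54.2% of all genes. Because CD84 in this comparison was known when the family was chosen, nothing is read from these counts. The median log2 fold change was 1.10 over the 5 members and -0.01 over all genes tested.

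CD84, a self-binding receptor of myeloid cells, platelets and lymphocytes, was at 82.1, 78.5 and 79.0 CPM in the EV libraries and at 189.8, 184.7 and 195.1 CPM in the HSP90α-KO libraries. Every HSP90α-KO library was far above every EV library. The log2 fold change was 1.25 ± 0.03 (SE), 2.38-fold, given as a description without a test.

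SLAMF6, a self-binding receptor of T cells, B cells and NK cells that lies next to CD84, was at 46.55, 48.53 and 50.05 CPM in EV and at 113.9, 117.2 and 119.6 CPM in HSP90α-KO. The groups did not overlap. It rose 2.42-fold (log2 fold change 1.27 ± 0.04 SE, limma adjusted p = 1e-19). SLAMF6 and CD84 were higher by nearly the same factor, since SLAMF6 had 0.606 ± 0.0347 reads per CD84 read in EV and 0.616 ± 0.0175 in HSP90α-KO cells (SD, n = 3), a difference within the spread of EV.

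CD48, the lipid-anchored ligand, was at 1.66, 1.01 and 1.41 CPM in EV (35, 21 and 37 reads) and at 2.49, 3.47 and 3.03 CPM in HSP90α-KO (51, 67 and 59 reads). Every HSP90α-KO library was above every EV library. It rose 2.20-fold (log2 fold change 1.10 ± 0.17 SE, limma adjusted p = 3.8e-06). The log2 fold change was 0.92 without EV replicate 2 and 0.99 without HSP90α-KO replicate 2, so in both cases CD48 came under the limit of 1 while its adjusted p stayed under 0.05, and it was 0.76 with 1 CPM added to every value.

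SLAMF1, the self-binding receptor after which the family is named, was at 3.99, 3.76 and 2.82 CPM in EV and at 1.95, 2.33 and 2.10 CPM in HSP90α-KO. The groups did not overlap, with the lowest EV library close above the highest HSP90α-KO library. For SLAMF1 the log2 fold change was -0.69 ± 0.14 (SE, limma adjusted p = 0.00021), a difference that passed the adjusted p and not the limit on size. SLAMF7, a self-binding receptor of NK cells and plasma cells, was at 1.52, 1.78 and 2.10 CPM in EV (32, 37 and 55 reads) and at 0.537, 0.725 and 0.616 CPM in HSP90α-KO (11, 14 and 12 reads). The highest HSP90α-KO library had less than the lowest EV library. SLAMF7 fell 2.88-fold (log2 fold change -1.40 ± 0.22 SE, limma adjusted p = 5.7e-06), and with 1 CPM added to every value the log2 fold change was -0.78.

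In HSP90β-KO cells the 2 most abundant members stayed near EV, and the lower ones CD48 and SLAMF1 were raised. Of the 5 members 1 was changed and higher than in EV, where 1.83% of all genes tested were higher, and 0 were lower, where 2.65% were lower. Limma voom on the recovered reads also called 1 higher and 0 lower. By adjusted p alone 4 of 5 differed, 2 higher and 2 lower, against 34.4% of all genes. The median log2 fold change of the members was 0.07, and that of all genes was 0.00. Both knockout comparisons used the same EV libraries, so their values are given side by side and no agreement between them is counted.

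CD48 was at 6.49, 6.06 and 5.74 CPM in the HSP90β-KO libraries (136, 142 and 145 reads), above both other groups. It rose 4.47-fold over EV (log2 fold change 2.11 ± 0.17 SE, limma adjusted p = 9.3e-11). An antisense long non-coding RNA overlaps CD48, and it is not stated whether the counting used strand, so reads of the pair may not have been told apart. The antisense gene had 13, 5 and 14 reads in EV, 5, 8 and 8 in HSP90α-KO and 11, 20 and 20 in HSP90β-KO, fewer than CD48 in every one of these libraries.

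SLAMF1 was at 6.53, 7.08 and 5.90 CPM in HSP90β-KO. It thus lay above EV here and below EV in HSP90α-KO cells, without overlap in either case. The log2 fold change over EV was 0.88 ± 0.14 (SE, limma adjusted p = 2.2e-05), 1.85-fold, short of the limit on size. CD84 was at 72.0, 72.5 and 73.2 CPM, just under EV, with a log2 fold change of -0.14 ± 0.03 (SE, limma adjusted p = 0.0029), 1.10-fold lower. SLAMF6 was at 49.9, 51.3 and 50.6 CPM and overlapped EV, with a log2 fold change of 0.07 (95% confidence interval -0.02 to 0.15, limma adjusted p = 0.21).

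SLAMF7 was at 1.33, 1.02 and 1.19 CPM in HSP90β-KO, between the other groups and below every EV library. Its log2 fold change from EV was -0.57 ± 0.22 (SE, limma adjusted p = 0.047). SLAMF7 was short of the limit on size and so was not called changed. Its adjusted p was no longer under 0.05 when any 1 of EV replicates 2 and 3 or HSP90β-KO replicates 1, 2 and 3 was left out (0.052 to 0.19). The same held with the replicate number as a block (adjusted p = 0.058), after quantile normalization (0.092) and without the filter on low values (0.05).

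**Figure D2:**
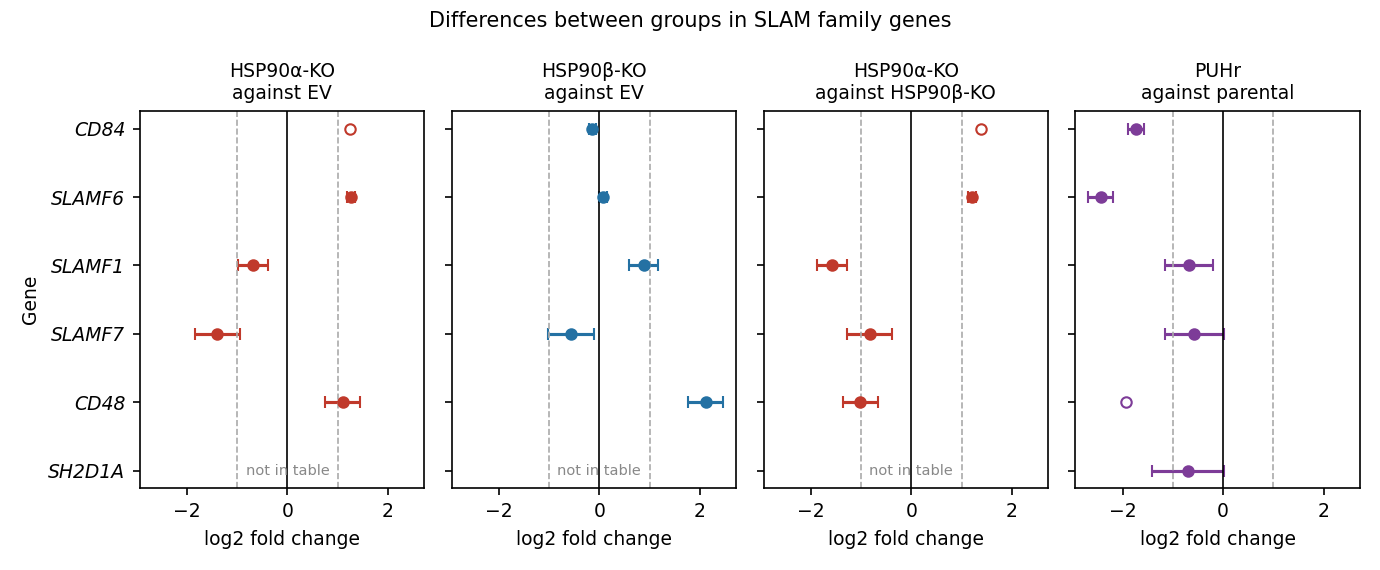
Log2 fold change of 6 SLAM family genes in the 4 comparisons, from the limma fit of all genes, with its 95% confidence interval (filled) or as a description without one (open; CD84 in HSP90α-KO and CD48 in PUHr cells); dashed lines mark the limits of -1 and 1. SLAMF1 was at -0.69 in HSP90α-KO against EV and at 0.88 in HSP90β-KO against EV, and CD84 and SLAMF6 lie below -1 in PUHr against parental.

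Set against each other, the 2 knockouts differed in 5 of 5 members by adjusted p alone, against 59.9% of all genes tested. With the limit on size, 2 of 5 were higher in HSP90α-KO, against 7.14% of all genes, and 2 of 5 lower, against 5.57%. The HSP90α-KO level of CD84, 1 of the 2 higher, was known when the family was chosen, so nothing is read from these counts either. CD84 was 2.62-fold higher in HSP90α-KO than in HSP90β-KO (log2 fold change 1.39 ± 0.03 SE), given as a description without a test. SLAMF6 was 2.31-fold higher (log2 fold change 1.21 ± 0.04 SE, limma adjusted p = 1.9e-19). SLAMF1 was lower in HSP90α-KO by a log2 fold change of -1.57 ± 0.14 (SE, limma adjusted p = 4e-10). In size this was the largest log2 fold change of the 5 in the main fit. It stayed the largest with each library left out in turn (SLAMF1 -1.64 to -1.51, CD84 1.37 to 1.41). With 1 CPM added to every value it was not, with SLAMF1 at -1.26 and CD84 at 1.375. CD48 was also lower (log2 fold change -1.01 ± 0.17 SE, limma adjusted p = 9.7e-06), at the very limit on size, and came to -0.89 without HSP90α-KO replicate 1, -0.97 without HSP90β-KO replicate 1 and -0.97 after median centring. SLAMF7 had a log2 fold change of -0.83 ± 0.22 (SE, limma adjusted p = 0.002). The median over the 5 was -0.83, and over all genes -0.01.

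Marker genes were read beside these results. The 8 K562 markers summed to 488.5 to 522.9 CPM in EV, 421.7 to 466.5 CPM in HSP90α-KO and 425.4 to 434.9 CPM in HSP90β-KO, so both knockouts lay below EV. Of the 7 T cell markers listed, 5 have a row in the knockout table (CD3D, CD3E, CD3G, CD5 and ZAP70), and their summed level was 9.03 to 10.2 CPM in EV, 4.67 to 5.75 CPM in HSP90α-KO and 17.6 to 19.9 CPM in HSP90β-KO. SLAMF1 followed this order of groups, and CD84, SLAMF6, CD48 and SLAMF7 did not. The 3 NK cell markers with a row summed to 4.05 to 4.85 CPM in EV, 3.63 to 4.10 in HSP90α-KO and 4.82 to 6.77 in HSP90β-KO, and the 3 of B cells to 7.32 to 8.73, 5.71 to 6.73 and 6.53 to 8.06 CPM. The 2 monocyte markers with a row, LYZ and ITGAM, summed to 157.8 to 161.0 CPM in EV, 158.6 to 160.7 CPM in HSP90α-KO and 117.7 to 121.4 CPM in HSP90β-KO. No marker with a row was at 0 throughout a group. The part of these differences in the SLAM results was not tested. In bulk RNA, fewer cells that express a gene and less RNA of it per cell cannot be told apart.

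In PUHr cells SLAMF6, CD48, CD84 and, by less, SLAMF1 were lower than in parental cells. Of the 6 members tested 3 were changed and lower, where 4.69% of all 16503 genes tested were lower. CD48, 1 of these 3, passed the filter through the parental libraries alone, where it is high, so it had to differ and supports neither this count nor those that follow. None (0 of 6) was higher, where 5.37% were higher. That count was also 0 at an unadjusted p under 0.05 in limma and 0 by limma voom, which called 3 lower. By adjusted p alone 4 of 6 differed, against 51.4% of all genes. The median log2 fold change was -1.21 over the members and 0.00 over all genes tested. Without CD48, among genes that reached the filter level in a library of each group (a limit added after seeing the data), 2 of 5 members were changed and lower, against 3.06% of 15930 genes, 3 of 5 differed by adjusted p alone, against 49.8%, and the median was -0.70, against 0.01 over those genes. The reads of all members together came to 45.7 ± 3.05 CPM in parental and 13.2 ± 0.639 CPM in PUHr cells (SD, n = 3).

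SLAMF6 was at 10.3, 10.9 and 11.7 CPM in the parental libraries (243, 259 and 249 reads) and at 2.05, 2.09 and 1.74 CPM in the PUHr libraries (51, 50 and 39 reads). The groups were far apart. SLAMF6 fell 5.59-fold (log2 fold change -2.43 ± 0.12 SE, limma adjusted p = 2.7e-10). A processed copy, SLAMF6P1, had 11, 4 and 6 reads in parental and 0, 2 and 0 in PUHr libraries, few beside those of SLAMF6.

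CD84 was at 28.6, 31.7 and 33.1 CPM in parental and at 8.84, 9.99 and 9.08 CPM in PUHr libraries. Again no library overlapped. CD84 fell 3.34-fold (log2 fold change -1.73 ± 0.07 SE, limma adjusted p = 4.9e-11). SLAMF6 thus fell further than CD84, from 0.352 ± 0.00829 to 0.211 ± 0.0204 SLAMF6 reads per CD84 read (SD, n = 3), and the 2 groups of ratios did not overlap. Per kilobase of exon, SLAMF6 stood above CD84 in parental cells (3.98 ± 0.257 against 3.36 ± 0.248 CPM per kb) and below it in PUHr cells (0.713 ± 0.0707 against 1.01 ± 0.0660 CPM per kb).

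**Figure D3:**
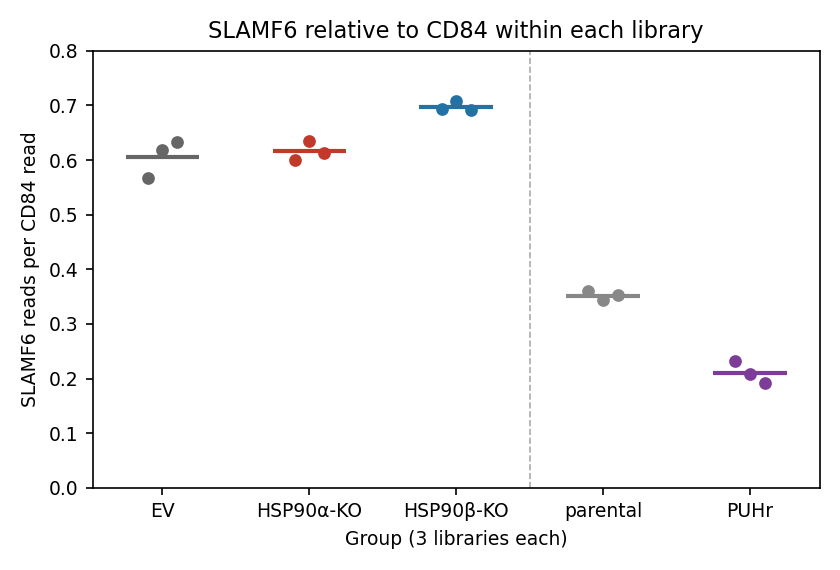
SLAMF6 reads per CD84 read in each library; points are libraries, bars are means of 3, and the dashed line parts the separately normalized tables. The ratio was 0.606 in EV and 0.616 in HSP90α-KO cells, 0.698 in HSP90β-KO, and 0.352 in parental against 0.211 in PUHr cells.

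CD48 was low in parental cells, at 0.676, 0.419 and 0.516 CPM (16, 10 and 11 reads), and lower in PUHr cells, with 1, 1 and 4 reads. The groups did not overlap, and CD48 passed the filter through the parental libraries only. Over the pooled reads, 37 against 6, parental cells had 6.39 times the level of PUHr cells (95% exact interval 2.67 to 18.5, which covers counting error only). Because of how it passed, no p is given for it from the filtered fit, and without the filter on low values the log2 fold change of -1.93 had a limma adjusted p of 0.054. The overlapping antisense gene had 40 reads in parental and 16 in PUHr libraries, in both groups more than CD48 itself.

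SLAMF1 was at 1.69, 1.30 and 1.17 CPM in parental and 0.683, 0.836 and 0.979 CPM in PUHr libraries. The groups came close without overlap. The log2 fold change of SLAMF1 was -0.68 ± 0.22 (SE, limma adjusted p = 0.018), and the adjusted p was 0.09 without parental replicate 1, 0.069 without PUHr replicate 1 and 0.13 without the filter on low values. SLAMF7 was at 0.592, 1.05 and 1.31 CPM in parental and 0.643, 0.585 and 0.578 CPM in PUHr libraries, which overlapped through parental replicate 1. Its log2 fold change was -0.58 (95% confidence interval -1.16 to 0.01, limma adjusted p = 0.094), and without that library it was -0.87 (adjusted p = 0.012).

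SH2D1A, the SAP adaptor that links the tails of several of these receptors to FYN, had 9, 13 and 10 reads in parental and 5, 4 and 10 in PUHr libraries. The groups overlapped through PUHr replicate 3. Its log2 fold change was -0.70 (95% confidence interval -1.41 to 0.02, limma adjusted p = 0.098). Without that library it was -1.02, given without a p because only parental libraries then reached the filter level. CD244, the receptor of CD48, had 3, 7 and 4 reads in parental and 5, 4 and 4 reads in PUHr libraries and was not tested. Its pooled ratio of PUHr to parental was 0.896 (95% exact interval 0.388 to 2.06). LY9, a self-binding receptor of lymphocytes, had 2, 0 and 1 reads in parental and 0 in every PUHr library.

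SLAMF8, found on activated myeloid cells, had 0 reads in all 6 libraries, and SLAMF9 had 1 read in PUHr replicate 2 and 0 elsewhere. For a gene at 0, up to 3 reads, at most 0.141 CPM in any library of this table, would be allowed by counting error. At this depth no difference was detectable in LY9, SLAMF8 or SLAMF9. The knockout table has no row for CD244, LY9, SLAMF8, SLAMF9 or SH2D1A, and they were not analysed there.

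**Figure D4:**
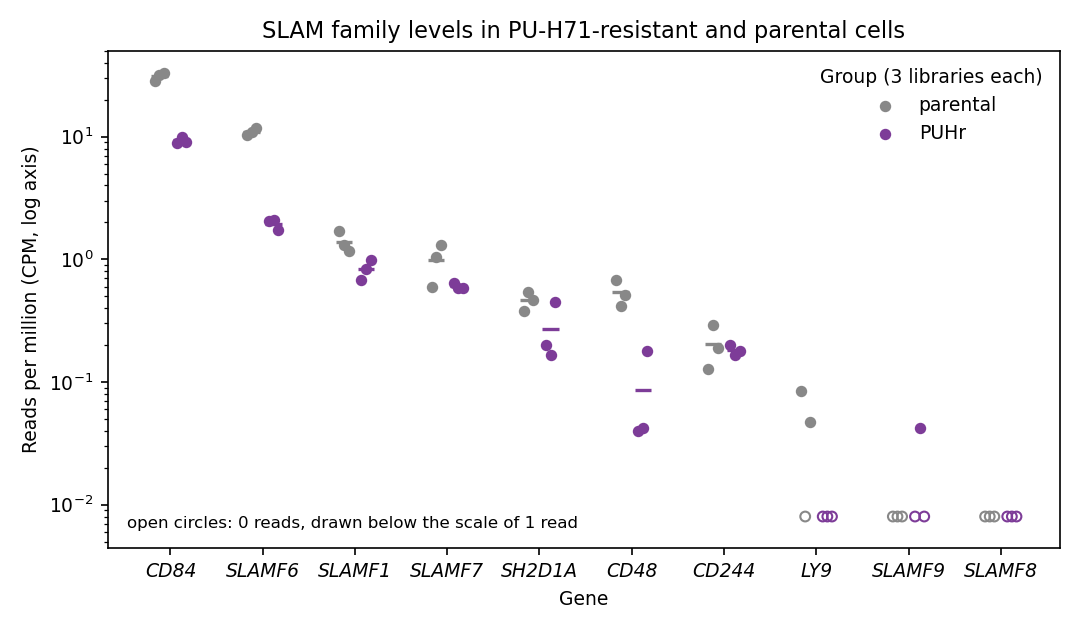
Level of the 10 SLAM family genes in each library of the resistance table, in CPM on a log axis; points are libraries, bars are means of 3 where every library had a read, and open circles are libraries with 0 reads, placed at an arbitrary height below the level of 1 read. The 3 PUHr libraries lie under the 3 parental ones for CD84, SLAMF6, SLAMF1 and CD48 and overlap them for SLAMF7, SH2D1A and CD244.

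Marker levels of other cells were also read in the resistance table. All 7 T cell markers have a row, and their sum was 11.1 to 11.3 CPM in parental and 8.65 to 9.12 CPM in PUHr libraries, with CD28 at 0 in PUHr. The 7 monocyte and macrophage markers summed to 54.2 to 56.0 CPM in parental and 41.6 to 44.7 CPM in PUHr libraries, with FCGR3A at 0 in PUHr. The 6 NK cell markers summed to 4.27 to 5.58 and 3.16 to 4.02 CPM, with NCAM1 at 0 in PUHr. The 6 B cell markers went the other way, from 4.61 to 5.03 CPM in parental to 6.23 to 6.69 CPM in PUHr libraries, with MS4A1 at 0 in both groups and CD79B and PAX5 at 0 in PUHr. The summed level of the 8 K562 markers was 1286 to 1327 CPM in parental and 1079 to 1164 CPM in PUHr libraries. The part of these shifts in the SLAM results was not tested.

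A list of 30 genes that act below the SLAM receptors (adaptors, Src family kinases, phosphatases and their targets) was read in the same fits. In HSP90α-KO against EV 3 of 26 tested were changed and higher and 0 lower, against 5.32% and 5.01% of all genes, with a median log2 fold change of 0.13 against -0.01 over all genes. By adjusted p alone 14 of 26 (53.8%) differed, 11 higher and 3 lower, against 54.2% of all genes, so that count is near the background. Limma voom also called 3 higher and 0 lower. INPP5D, the SHIP-1 phosphatase that binds these tails, rose from 7.96 ± 0.276 CPM in EV to 45.9 ± 3.47 CPM in HSP90α-KO (SD, n = 3; log2 fold change 2.51 ± 0.08 SE, limma adjusted p = 8.1e-20). The kinase SRC rose from 1.41 ± 0.583 to 4.77 ± 1.11 CPM (log2 fold change 1.76 ± 0.22 SE, limma adjusted p = 2.2e-07). The third was the adaptor DOK2, at 0.365 CPM in EV and 0.830 CPM in HSP90α-KO, named after its value was seen. Without EV replicate 1 or EV replicate 3 the count was 2.

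In HSP90β-KO against EV 0 of 26 of these genes were changed, where 1.83% of all genes were higher and 2.65% lower, so the count is near the background. The median was 0.00. By adjusted p alone 4 of 26 differed, 1 higher and 3 lower, against 34.4% of all genes. Limma voom called 0, and without EV replicate 2 the count of changed genes was 1. In HSP90α-KO against HSP90β-KO 2 of 26 were higher and 0 lower, against 7.14% and 5.57% of all genes. The 2 were INPP5D (log2 fold change 3.30 ± 0.08 SE, limma adjusted p = 1.2e-22) and SRC (1.19 ± 0.22 SE, adjusted p = 5.6e-05). By adjusted p alone 16 of 26 differed, 13 higher and 3 lower, against 59.9% of all genes. Limma voom called 2 higher and 0 lower. INPP5D thus had the same order of groups as CD84, highest in HSP90α-KO and lowest in HSP90β-KO at 4.58 ± 0.213 CPM. FYN, the kinase bound by SAP, was at 64.9 CPM in EV and 81.5 CPM in HSP90α-KO, a log2 fold change of 0.33 ± 0.04 (SE, limma adjusted p = 8e-08), which is under the limit on size.

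In PUHr against parental 7 of 27 partners tested were changed and lower and 0 higher, against 4.69% and 5.37% of all genes, with a median of -0.19 against 0.00 over all genes. DOK2 and SH2D1B, counted in the 7, passed the filter through the parental libraries alone and are no support for the count. Without them 5 of 25 were changed and lower, against 3.06% of the genes that reached the filter level in both groups, and the median was -0.16. By adjusted p alone 21 of 27 differed, 6 higher and 15 lower, against 51.4% of all genes. Without DOK2 and SH2D1B 19 of 25 differed, against 49.8% of the genes that reached the filter level in both groups. Limma voom, run on all 27, called 0 higher and 7 lower. PLCG2, a phospholipase of immune receptor signalling, fell from 19.4 ± 0.771 to 2.30 ± 0.150 CPM (SD, n = 3; log2 fold change -3.03 ± 0.09 SE, limma adjusted p = 2.2e-12). VAV1, a guanine nucleotide exchange factor of blood cells, fell from 37.4 ± 2.01 to 4.79 ± 0.283 CPM (log2 fold change -2.94 ± 0.07 SE, limma adjusted p = 2e-13). INPP5D fell from 9.10 ± 0.0676 to 1.503 ± 0.155 CPM (log2 fold change -2.54 ± 0.12 SE, limma adjusted p = 3.2e-10).

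The other 4 lower partners were PTPN6, SRC, DOK2 and SH2D1B, all at a low level and named after their values were seen. SH2D1B, the EAT-2 adaptor, had 17, 22 and 19 reads in parental and 3, 5 and 6 reads in PUHr libraries. Since SH2D1B and DOK2 had to differ, they are given without a p. FYN moved the other way, from 62.2 CPM in parental to 94.6 CPM in PUHr cells (log2 fold change 0.60 ± 0.03 SE, limma adjusted p = 1.5e-09), again under the limit on size. Outside the SLAM family, CD58, a CD2 family protein, was at 16.9 CPM in EV, 13.8 CPM in HSP90α-KO and 17.6 CPM in HSP90β-KO, and at 22.2 CPM in parental and 19.97 CPM in PUHr cells, and it was not called changed in any of the 4 comparisons.

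Genes around the cluster were read to see whether its members moved with their surroundings. Within chr1:158826811-161862887, 54 other genes were tested in the knockout table. In HSP90α-KO against EV 6 of them were higher and 4 lower (6 in all without EV replicate 2), against 5.32% and 5.01% of all genes, and the median log2 fold change was -0.12. In HSP90β-KO against EV 2 were higher and 3 lower (3 in all without EV replicate 1), against 1.83% and 2.65% of all genes, with a median of -0.07. In PUHr against parental 2 of 44 were higher and 1 lower, against 5.37% and 4.69% of all genes, with a median of -0.07. Some of these genes reached the filter level in no library of one of the groups compared and are no support for the counts. The counts were repeated on neighbours that reached it in both groups (a limit added after seeing the data). In HSP90α-KO against EV 4 were higher and 2 lower of 49, against 3.92% and 3.33% of all genes under this limit. In HSP90β-KO against EV 2 were higher and 1 lower of 49, against 1.37% and 1.6%. In PUHr against parental 1 was higher and 1 lower of 43, against 4.25% and 3.06%. Among the named neighbours, the transcription factor gene NHLH1 fell in HSP90α-KO (log2 fold change -2.10 ± 0.10 SE, limma adjusted p = 4.1e-16) and the interferon-inducible gene IFI16 rose (1.69 ± 0.13 SE, adjusted p = 2.2e-11).

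FCGR2A, an Fc receptor gene with near-identical paralogs beside it, so that its reads are uncertain, went from 79.5 ± 3.86 CPM in EV to 168.1 ± 2.63 CPM in HSP90α-KO (log2 fold change 1.08 ± 0.04 SE, limma adjusted p = 6.3e-19). In PUHr against parental its log2 fold change was -1.56 ± 0.06 (SE, limma adjusted p = 3.9e-11), so FCGR2A took the same direction as CD84 and SLAMF6 in both comparisons. IFI16 was higher in PUHr (log2 fold change 1.38 ± 0.14 SE, limma adjusted p = 8.5e-07) and in HSP90β-KO against EV (1.30 ± 0.13 SE, adjusted p = 8.8e-09). HSPA6, a heat shock gene with a near-identical copy close by, was lower in HSP90β-KO than in EV (log2 fold change -2.01 ± 0.09 SE, limma adjusted p = 2.9e-15). Around SH2D1A on the X chromosome 6 genes were tested, with median log2 fold changes of -0.49 in HSP90α-KO and -0.22 in HSP90β-KO against EV and -0.31 in PUHr against parental.

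**Figure D5:**
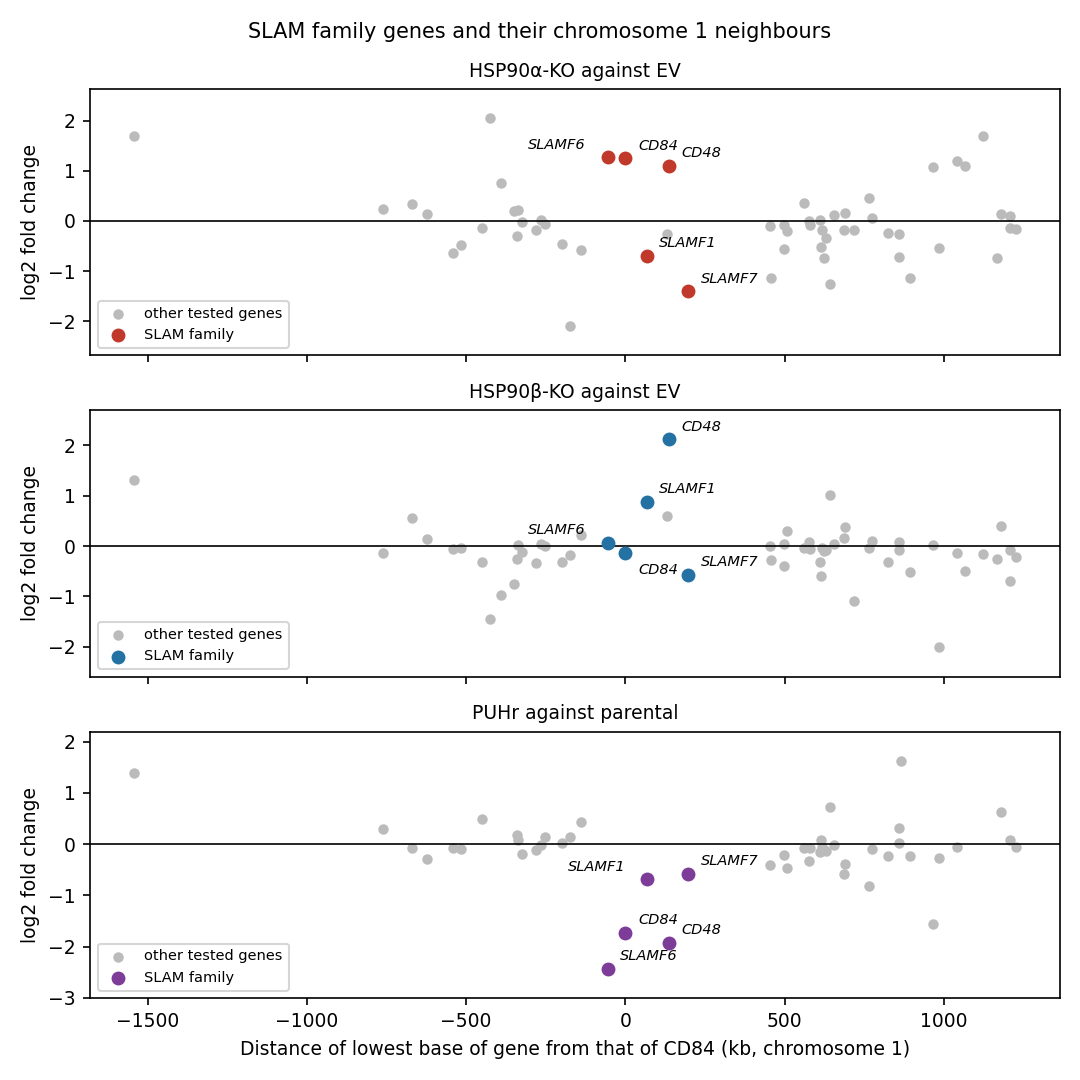
Log2 fold change of the SLAM family genes (coloured) and of the other tested genes around them (grey) against the distance of each gene's lowest base from that of CD84, in kb along chromosome 1. Within the cluster SLAMF6, CD84 and CD48 lie above 1 and SLAMF1 and SLAMF7 below 0 in HSP90α-KO, and the median of the 54 grey genes there is -0.12.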

How the data were processed

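RNA-seq of poly(A) RNA (stranded kit, single-end reads) was deposited for 15 libraries of 5 groups. The authors used STAR (hg38) for alignment, featureCounts for gene counts and edgeR for normalization (versions and annotation release not given in the sources used here). The deposited values are log2 CPM with a prior count of about 2 reads (1.745 to 2.372). With the floor subtracted, the values of up to 5000 reads were whole reads within 1.7e-06. Rows lacking an identifier (30 and 114), with 0.0270% to 0.0363% of a library's reads, were dropped.

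A gene entered the test if 3 libraries of its table or more reached a log2 CPM of -1 (17039 and 16503 genes). Genes were compared in limma (version 3.58.1, R 4.3.3: intensity trend, 2-sided, Benjamini-Hochberg adjustment over all genes tested), in 1 fit per table. A count test was not used because the deposited unit is log2, and limma voom on the recovered reads was an alternative. Level per kilobase used the exon union of GENCODE release 44. That annotation may differ from the one the authors used.

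The members and the lists were chosen with earlier results of these data known. Named were all members, and partners and neighbours changed in a comparison whose mean log2 CPM was at least 1. FYN, CD58, DOK2, PTPN6, SH2D1B, SLAMF6P1 and the RNA antisense to CD48 were named outside this rule. Same-numbered libraries did not deviate together (correlations -0.048 to 0.031 in the knockout and 0.0068 to 0.045 in the resistance table), so replicate numbers were not used as pairs. Alternatives were other filters, pseudocounts, scalings and variance models, a replicate block, the 6 libraries compared, leaving out each library, limma voom and adjusted p alone.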

Additional observations from a re-analysis of the deposited data

How the results depend on the processing

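No tested member changed direction under the alternatives run. By adjusted p, 321 values of single members kept their side of 0.05, 11 lost it and 2 gained it. CD84 in HSP90α-KO against EV and against HSP90β-KO and CD48 in PUHr against parental, which are given without a test, are not among these, and the limit on size is not part of this count. The gains include SH2D1A in PUHr against parental without PUHr replicate 3. This gain is no support, since only parental libraries then reached the filter level. CD84 in HSP90α-KO against EV was 1.20 with 5 CPM added to every value and 1.18 after quantile normalization. The count of changed members in HSP90α-KO against EV fell from 4 to 2 with 1 CPM and to 2 with 5 CPM added, that in HSP90β-KO against EV from 1 to 0 with 5 CPM added, and that between the knockouts from 4 to 2 with 5 CPM added, since added values shrink the folds of the low genes. By adjusted p alone the count in HSP90β-KO against EV was 4. For the signalling partners, 5 CPM added gave 1 in HSP90α-KO against EV, 1 between the knockouts (1 also with 1 CPM) and 3 in PUHr against parental, where a mean log2 CPM of 1 or more also gave 3. By adjusted p alone the partners counted 14 in HSP90α-KO against EV, 4 in HSP90β-KO against EV, 16 between the knockouts and 21 in PUHr against parental, where 54.2%, 34.4%, 59.9% and 51.4% of all genes passed. The changed chromosome 1 neighbours numbered 10 in HSP90α-KO against EV, 3 with 1 CPM added or a mean log2 CPM of 1 or more and 2 with 5 CPM added, 5 in HSP90β-KO against EV, 1 with 1 or 5 CPM added, and 3 in PUHr against parental, 1 with 5 CPM added. Leaving out each library gave 0 to 1 partners in HSP90β-KO against EV. The replicate block left the counts of changed members at 4, 1, 4 and 3 in HSP90α-KO against EV, HSP90β-KO against EV, between the knockouts and in PUHr against parental. Among single members the block took only SLAMF7 in HSP90β-KO against EV above an adjusted p of 0.05 (log2 fold change -0.57, adjusted p = 0.058). Depth limits LY9, SLAMF8, SLAMF9 and CD244, and the clone behind each library is not given.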
